A study of Mus musculus with 10 samples.

Results

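The breakdown of the branched-chain amino acids leucine, isoleucine and valine was followed through 10 genes taken by symbol. They encode the mitochondrial aminotransferase (Bcat2), the branched-chain ketoacid dehydrogenase complex (Bckdha, Bckdhb and Dbt) with its kinase (Bckdk) and phosphatase (Ppm1k), and enzymes of the later leucine and valine steps (Ivd, Mccc1, Mccc2 and Hibch). Each of the 10 symbols matched 1 row of the 53392 genes in the deposited table, and all 10 passed the filter on low counts that left 15392 genes to test. The livers came from C57BL/6 mice aged 24 weeks, 5 wild type (WT) and 5 labelled Fbp1-deleted, whose deficiency the labels place in the liver. The sources used here do not say how the deletion was made, which sex the mice were or whether they had been fed. The Fbp1 product, fructose bisphosphatase, acts in gluconeogenesis.

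In mammals the branched-chain amino acids first lose their amino group to a ketoacid acceptor. Hepatocytes perform this step poorly because the aminotransferases are known chiefly from other tissues, the mitochondrial one from muscle, fat and pancreas. The liver instead oxidises the ketoacids that other tissues release. The committed step is the ketoacid dehydrogenase complex, built from a decarboxylase (E1, alpha and beta subunits), a lipoyl-bearing acyltransferase core (E2, Dbt) and a flavoprotein (E3, Dld) shared with the pyruvate and oxoglutarate dehydrogenases. Phosphorylation of E1 alpha by Bckdk switches the complex off and Ppm1k removes the phosphate.

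Levels are given as CPM, a gene's estimated counts as a share of its library's total after TMM scaling between libraries. Each change is a log2 difference, Fbp1-deleted minus WT, and SE is its standard error. Adjusted p is from edgeR's quasi-likelihood test with Benjamini-Hochberg adjustment over all 15392 genes, and a gene is said to have risen or fallen where it was under 0.05. Library totals lay between 17778395 and 23894812 counts. The submitters call the 5 livers of each group biological replicates. Fbp1 itself stood between 778 and 1050 CPM in WT and between 7.38 and 13.4 CPM in the libraries labelled Fbp1-deleted. Fbp1-deleted replicate 8 stood nearest to WT on the leading principal component of the 2000 most variable genes, at 8.0, against 29.1 to 41.7 in the other 4 and -35.5 to -16.2 in WT. The split of all calls depended on the scaling, with 51.5% of them higher under TMM, 40.3% with upper quartile factors and 37.7% when totals alone set the scale.

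Of the 10 breakdown genes, Bcat2, Dbt, Ivd and Mccc2 fell in Fbp1-deleted liver and 0 rose. Over all genes tested 10% fell, 10.6% rose and 20.6% passed in either direction. The median change of the 10 genes was -0.26, beside 0.01 over all genes. Of the 10, 9 were fitted below 0, as were 7553 of the 15392 genes tested. The 10 genes were chosen with earlier results of these data known. The changes ran from -1.38 for Bcat2 to 0.02 for Hibch. In 3 genes, Bcat2, Dbt and Ivd, the 5 Fbp1-deleted livers all lay below the 5 WT livers, which held for 6.89% of the genes tested. None lay wholly above WT, as 6.57% of the genes tested did. The E1 subunits, the kinase, the phosphatase, Mccc1 and Hibch did not pass.

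**Figure D1:**
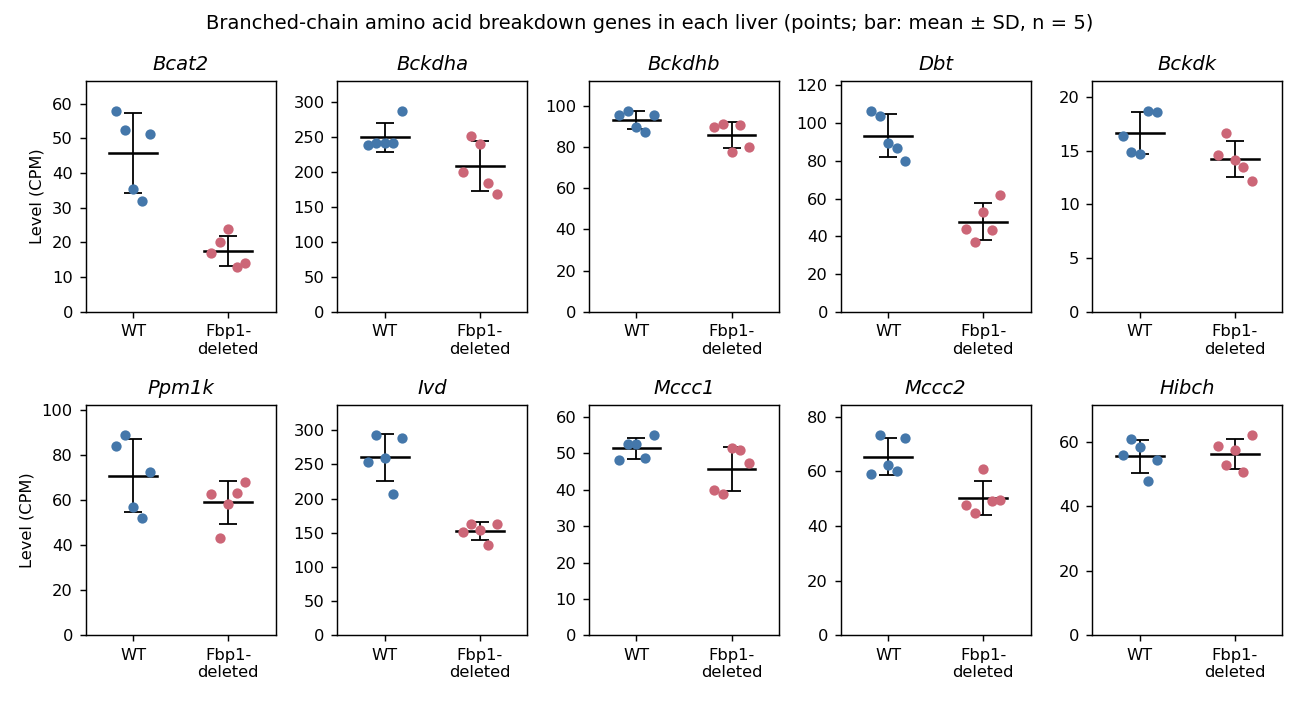
Level of each of the 10 genes in CPM (vertical axis, from 0) in 5 WT and 5 Fbp1-deleted livers. Points are livers, and bars give the mean ± SD (n = 5). The points of Bcat2, Dbt and Ivd form separate groups, and those of the other 7 genes overlap.

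Dbt encodes the E2 core of the complex, the acyltransferase that carries the lipoyl arm. The gene (ENSMUSG00000000340.10) is protein-coding and lies on the plus strand of chromosome 3 from 116513070 to 116549981 in GRCm38. Its level in WT replicates 1 to 5 was 106, 104, 89.6, 87.0 and 80.2 CPM. In Fbp1-deleted replicates 6 to 10 it was 43.9, 37.1, 52.7, 43.3 and 61.9 CPM. The highest Fbp1-deleted liver, replicate 10, thus stood below the lowest WT liver. The means were 93.4 ± 11.3 CPM in WT and 47.8 ± 9.67 CPM in Fbp1-deleted liver (SD, n = 5). The change was -0.97 (SE 0.14, adjusted p = 0.000455, edgeR), or 51.2% of the WT level, the smallest adjusted p among the 10 genes. Dbt passed with each of the 10 libraries left out in turn, with changes between -1.08 and -0.88.

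The E1 subunits did not pass. Bckdha, which encodes the E1 alpha subunit and carries the regulatory phosphorylation, stood at 238, 241, 241, 241 and 286 CPM in WT. Its level was 200, 251, 239, 184 and 168 CPM in Fbp1-deleted replicates 6 to 10. Replicates 7 and 8 lay among the WT livers and the other 3 lay below them. The change was -0.26 (SE 0.12, adjusted p = 0.146), with a 95% interval from -0.52 to 0.00. Bckdhb, the E1 beta subunit, was between 87.5 and 97.5 CPM in WT and between 77.8 and 91.3 CPM in Fbp1-deleted liver. Its change was -0.12 (SE 0.09, adjusted p = 0.372, edgeR), with an interval from -0.30 to 0.07. The fitted values were thus -0.97 for E2 and -0.26 and -0.12 for the E1 subunits, and the difference between them was not tested.

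Dld, the E3 flavoprotein, is outside the 10 genes but completes the complex, and it rose. It stood between 89.5 and 96.7 CPM in WT and between 108 and 140.0 CPM in Fbp1-deleted liver, without overlap. Its change was 0.43 (SE 0.09, adjusted p = 0.00575, edgeR). Dld serves several complexes, so its transcript cannot be assigned to any single one of them.

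The balance between subunits was described by log2 ratios of CPM per kb of exon in each liver, with no test because the genes had already been chosen. The ratio of Dld to Dbt was -0.12 ± 0.17 in WT and 1.29 ± 0.33 in Fbp1-deleted liver (SD, n = 5). The livers ran from -0.31 to 0.13 in WT and from 0.90 to 1.55 in Fbp1-deleted liver, so the groups did not overlap. That separation was fixed by the levels already given, Dld lying wholly above WT and Dbt wholly below it, and adds no further result. The ratio of Bckdhb to Dbt ran from 0.73 to 1.14 in WT and from 1.26 to 2.19 in Fbp1-deleted liver, also without overlap. The ratio of Bckdha to Dbt overlapped, because Fbp1-deleted replicate 10, at 2.26, lay within the WT range of 1.98 to 2.66. The ratio between the E1 subunits themselves, Bckdha to Bckdhb, ran from 1.23 to 1.51 in WT and from 0.95 to 1.55 in Fbp1-deleted liver. With the length of each gene's principal transcript instead, the mean ratio of Dld to Dbt was 0.40 in WT and 1.80 in Fbp1-deleted liver. The height of a ratio can thus rest on the length used, while its difference between groups does not.

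**Figure D2:**
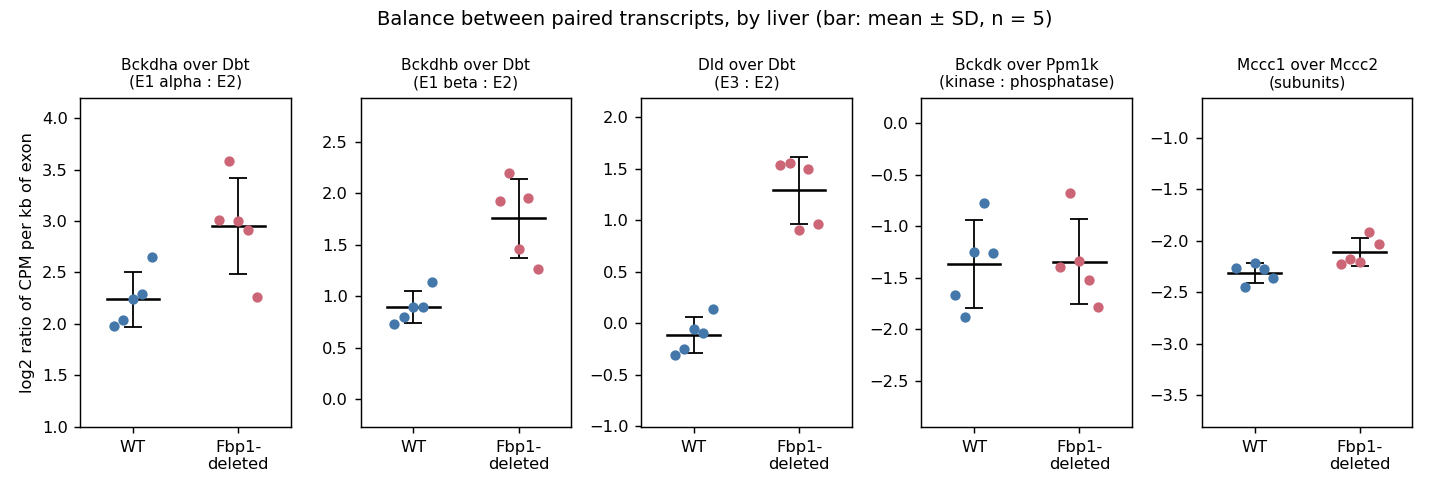
Log2 ratio of CPM per kb of exon (vertical axis) for 5 pairs of transcripts in 5 WT and 5 Fbp1-deleted livers, each panel spanning the same number of log2 units. Points are livers and bars the mean ± SD (n = 5). The ratios of Dld and of Bckdhb to Dbt separate the groups, and those of Bckdk to Ppm1k and of Mccc1 to Mccc2 overlap. For Dld to Dbt the separation follows from the levels of the 2 genes. The height of a ratio can rest on the length used.

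The regulators of the complex did not pass. Bckdk, the inactivating kinase, was the gene with the lowest level per length of the 10 in both groups. It stood at 16.3, 14.9, 14.7, 18.7 and 18.6 CPM in WT and at 14.6, 16.7, 14.2, 13.5 and 12.2 CPM in Fbp1-deleted replicates 6 to 10. Replicates 8, 9 and 10 lay just below the lowest WT liver, as did replicate 6, and replicate 7 lay within the WT range. The change was -0.22 (SE 0.12, adjusted p = 0.193, edgeR), with an interval from -0.48 to 0.03. Ppm1k, the activating phosphatase, varied more between livers, from 52.2 to 89.0 CPM in WT and from 43.2 to 68.2 CPM in Fbp1-deleted liver. Its change was -0.26 (SE 0.16, adjusted p = 0.272), with an interval from -0.61 to 0.08. The log2 ratio of Bckdk to Ppm1k per kb was -1.36 ± 0.43 in WT and -1.34 ± 0.41 in Fbp1-deleted liver (SD, n = 5), and the ranges overlapped almost fully. Each of these intervals holds both no change and a fall.

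Bcat2, the mitochondrial aminotransferase, had the largest change of the 10 genes. It lies on the plus strand of chromosome 7 from 45570153 to 45589711 (ENSMUSG00000030826.19, protein-coding). Its level was 57.9, 52.4, 35.4, 31.8 and 51.3 CPM in WT and 16.9, 20.1, 23.8, 12.9 and 14.1 CPM in Fbp1-deleted replicates 6 to 10. The livers of the groups did not overlap, and within WT replicates 3 and 4 were lower than the other 3. The change was -1.38 (SE 0.20, adjusted p = 0.000808, edgeR), a 2.61-fold fall. It passed without each library in turn, between -1.52 and -1.29. Bcat1, the cytosolic aminotransferase known from brain and growing cells, was below the filter in these livers, at 0 to 1.36 CPM.

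The Bcat2 count carries a particular uncertainty. The antisense gene 0610005C13Rik overlaps the start of Bcat2 on the opposite strand, the library does not keep strand, and 622 of the 3900 exon bases of Bcat2 lie in exons of that gene. Of the 1772 bases of the principal Bcat2 transcript, 247 do. The antisense gene was the more abundant of the pair, with counts summing to 409% of those of Bcat2. It stood between 138 and 206 CPM in WT and between 97.4 and 111 CPM in Fbp1-deleted liver, and it fell too, with a log2 change of -0.69 (SE 0.11) and adjusted p = 0.00108. 0610005C13Rik was singled out after its values were seen. Over the 10 livers the log2 levels of the pair correlated at r = 0.92, and at r = 0.56 once each group's mean was removed. These r values are a description, and the 2 genes may share reads where their exons overlap. How Salmon divided reads between them was not tested. Genes overlapping the other members held at most 2.19% of the member's counts.

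**Figure D3:**
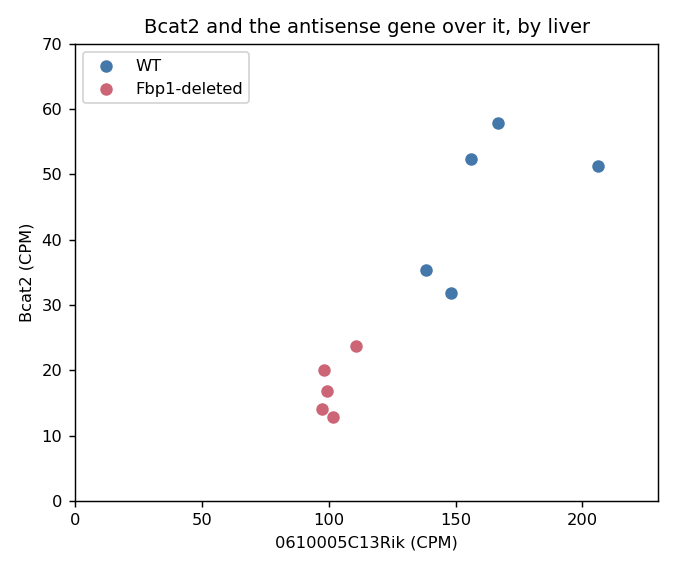
Level of Bcat2 (vertical axis, CPM) against the antisense gene 0610005C13Rik that overlaps it (horizontal axis, CPM), both axes from 0. Each point is a liver, 5 WT and 5 Fbp1-deleted. All Fbp1-deleted livers lie at or below 23.8 CPM of Bcat2 and 111 CPM of the antisense gene, and all WT livers lie above both values.

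Because Bcat2 is known chiefly outside hepatocytes, markers of other cells were read beside it. Of 4 skeletal muscle markers and 4 adipocyte markers, 0 passed the filter. Their summed levels were at most 0.935 and 0.669 CPM in any liver, with Myh4 and Lep at 0 counts in all. Of 4 pancreas markers only Cela1 was tested, and it fell. It stood between 7.56 and 13.9 CPM in WT and between 3.40 and 7.47 CPM in Fbp1-deleted liver. Cpa1 was at 0 counts in all livers, and Prss2 and Ctrb1 had at most 2 and 1 counts in any liver. The summed level of the pancreas list was thus almost that of Cela1 alone. Of 5 Kupffer cell and macrophage markers 2 fell and 0 rose, with sums of 159 to 212 CPM in WT and 120.0 to 181 CPM in Fbp1-deleted liver. Of 5 T and B cell markers 2 fell and 0 rose, with sums of 10.9 to 17.4 against 6.30 to 10.3 CPM. For scale, 10% of all genes tested fell and 10.6% rose, and each marker list is short, so these counts say little. Falls were not seen in every list. Of 5 endothelial markers 1 rose (Lyve1) and 0 fell, with sums of 169 to 198 CPM in WT and 120.0 to 196 CPM in Fbp1-deleted liver. Of 5 stellate cell markers 1 rose (Dcn) and 0 fell, with sums of 163 to 237 against 214 to 277 CPM. Of 4 cholangiocyte markers 0 passed, with sums of 13.1 to 23.0 against 10.9 to 18.2 CPM. Of 6 hepatocyte markers 2 rose and 0 fell, with sums from 50800 to 93700 CPM in WT and from 83600 to 95600 CPM in Fbp1-deleted liver. The part of these other cells in the changes of the 10 genes was not tested, and in bulk tissue fewer cells of a type cannot be told apart from less RNA per cell.

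In the leucine branch, Ivd and Mccc2 fell and Mccc1 did not pass. Ivd encodes isovaleryl-CoA dehydrogenase, the flavin enzyme that follows the ketoacid dehydrogenase. It lies on the plus strand of chromosome 2 from 118861954 to 118882909 (ENSMUSG00000027332.11). Its level was 253, 293, 259, 207 and 288 CPM in WT. In Fbp1-deleted replicates 6 to 10 it was 151, 163, 154, 131 and 163 CPM. The groups did not overlap, and the Fbp1-deleted livers were the more alike, between 131 and 163 CPM against 207 and 293 CPM. The change was -0.77 (SE 0.11, adjusted p = 0.000519, edgeR), or 58.7% of the WT level. Ivd passed without each library in turn, between -0.84 and -0.72.

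Mccc1 and Mccc2 encode the biotin-bearing alpha and the beta subunit of methylcrotonyl-CoA carboxylase, the next leucine step. Mccc2 (chromosome 13, 99948530 to 100015639, minus strand) stood at 59.1, 73.3, 62.2, 60.3 and 72.2 CPM in WT and at 47.6, 44.9, 60.9, 49.0 and 49.4 CPM in Fbp1-deleted replicates 6 to 10. Replicate 8 lay inside the WT range and the other 4 lay below it. The change was -0.38 (SE 0.11, adjusted p = 0.0243, edgeR), or -0.45 with adjusted p = 0.00557 without replicate 8. The call was lost when any 1 of 5 libraries (WT replicates 2 and 5, Fbp1-deleted replicates 6, 7 and 9) was left out, where adjusted p lay between 0.0582 and 0.0709. Mccc1 ran from 48.1 to 55.0 CPM in WT and from 38.8 to 51.5 CPM in Fbp1-deleted liver, with replicates 6 and 7 lowest. Its change was -0.17 (SE 0.10, adjusted p = 0.271), with an interval from -0.39 to 0.05. The log2 ratio of Mccc1 to Mccc2 per kb of exon was -2.31 ± 0.09 in WT and -2.11 ± 0.13 in Fbp1-deleted liver (SD, n = 5), with overlapping ranges. With principal transcript lengths in place of all exons the means were -0.555 in WT and -0.353 in Fbp1-deleted liver, so the height of this ratio rests on the length used.

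**Figure D4:**
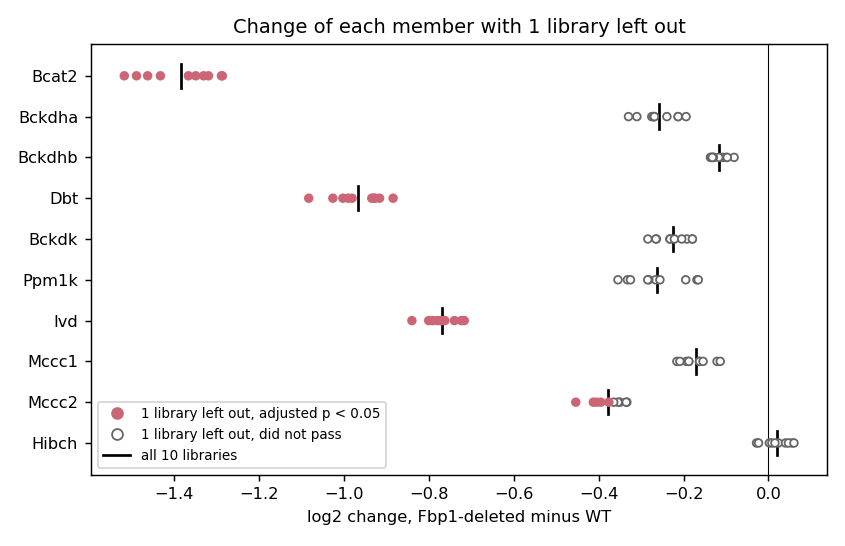
Fitted log2 change (Fbp1-deleted minus WT, horizontal axis) of each of the 10 genes with 1 library left out at a time. Filled points passed at adjusted p under 0.05, open points did not, and the vertical tick is the value from all 10 libraries. Bcat2, Dbt and Ivd passed in all 10 fits and Mccc2 in 5.

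The sequences before the starts of Bcat2, Ivd and Mccc2 are shown because these genes fell and RefSeq's promoter table for GRCm38.p6 holds them. It holds windows for 9 of the 10 genes. Dbt is not among them. They are written 5′ to 3′ on the gene's own strand and end at the base before the annotated start, and capitals mark each CCAAT or its reverse complement ATTGG, the CCAAT box bound by the general factor NF-Y. The windows are chr2:118861744-118861953 (plus strand) for Ivd, chr13:100015640-100015889 (minus strand) for Mccc2 and chr7:45569903-45570152 (plus strand) for Bcat2. The Bcat2 window lies inside the antisense gene 0610005C13Rik.
Ivd: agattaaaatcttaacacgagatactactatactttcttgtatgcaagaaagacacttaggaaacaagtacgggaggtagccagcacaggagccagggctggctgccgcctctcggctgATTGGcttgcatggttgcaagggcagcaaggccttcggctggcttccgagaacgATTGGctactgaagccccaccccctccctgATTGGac
Mccc2: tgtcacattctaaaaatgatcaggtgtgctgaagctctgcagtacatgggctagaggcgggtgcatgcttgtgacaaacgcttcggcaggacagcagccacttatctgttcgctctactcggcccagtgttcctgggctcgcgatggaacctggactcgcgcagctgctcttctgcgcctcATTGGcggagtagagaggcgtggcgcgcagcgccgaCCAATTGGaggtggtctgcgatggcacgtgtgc
Bcat2: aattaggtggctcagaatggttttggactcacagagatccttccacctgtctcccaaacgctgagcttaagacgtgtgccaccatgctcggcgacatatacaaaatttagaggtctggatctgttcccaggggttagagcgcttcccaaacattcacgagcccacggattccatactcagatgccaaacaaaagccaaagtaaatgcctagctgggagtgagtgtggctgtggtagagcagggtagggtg

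Ivd and Mccc2 each hold 3 matches in these stretches, 2 of those in Mccc2 overlapping, and Bcat2 holds 0. A CCAAT box in either direction was found in 6 of the 11 windows of 250 bases before a start that belong to the 10 genes, and in 33.8% of the 32851 windows of all genes. The windows with a match were those of Ivd, Mccc2, Mccc1, Ppm1k, Bckdk and 1 of the 2 Bckdhb starts, so genes that fell and genes that did not pass are both among them. The E-box CACGTG stood in the window of Mccc2 alone among these genes and in 6.02% of all windows. The GC box GGGCGG stood in the windows of Hibch, Mccc1, Ppm1k and Bckdhb and in 32.7% of all, and TATAAA in that of Bckdk and in 12.4% of all. The sequences searched for NRF1, for a nuclear receptor direct repeat and for paired E-boxes, and TGACGTCA, were in 0 of the windows of these genes. Over all windows the NRF1 sequence stood in 0.782%, the direct repeat in 0.0335% and TGACGTCA in 1.55%, so their absence from 11 windows says little. The paired E-boxes were in 0 of all windows too. These are letter matches and not bound sites.

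Hibch, the hydrolase that frees hydroxyisobutyrate in valine breakdown, stood between 47.8 and 60.9 CPM in WT and between 50.6 and 62.2 CPM in Fbp1-deleted liver. The groups overlapped nearly in full. Its change was 0.02 (SE 0.10, adjusted p = 0.904, edgeR), with an interval from -0.19 to 0.23. Its direction turned under upper quartile scaling (-0.05) and library totals (-0.07).

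Compared per kb of exon, the 10 genes spanned a wide range of levels in WT. Bckdha was highest at 131 ± 10.9 CPM per kb (SD, n = 5), followed by Bckdhb at 51.6 ± 2.36 and Ivd at 47.2 ± 6.24, whose ranges overlapped. Dbt at 27.9 ± 3.36 and Mccc2 at 23.3 ± 2.43 overlapped each other and lay below Ivd. Ppm1k at 11.8 ± 2.69, Bcat2 at 11.7 ± 2.93 and Hibch at 9.16 ± 0.825 CPM per kb did not differ beyond their ranges. Mccc1 at 4.69 ± 0.265 and Bckdk at 4.50 ± 0.520 were lowest and overlapped. The E2 core thus had a lower transcript level per length than either E1 subunit in WT. In Fbp1-deleted liver Dbt stood at 14.3 ± 2.89, Ivd at 27.7 ± 2.36 and Bcat2 at 4.49 ± 1.14 CPM per kb. With the length of the principal transcript in place of all exons, Bckdha stayed highest and Bckdk lowest in both groups, while Mccc1 rose to 20.9 and Hibch to 30.3 CPM per kb in WT, so the middle of the order rests on the length used.

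Of 20 further genes of the pathway, from the shared E3 to the cobalamin enzymes that use propionyl-CoA, 19 were tested, 3 fell and 2 rose (median change -0.14). Those that passed made up 26.3% of the genes tested from this list, near the 20.6% of all genes tested. Echs1, the short-chain enoyl-CoA hydratase, fell from 211 ± 26.3 to 162.5 ± 17.4 CPM (change -0.37, SE 0.11, adjusted p = 0.0298). Hibadh, the dehydrogenase after Hibch in valine breakdown, fell from 246 ± 21.2 to 193.5 ± 17.0 CPM without overlap (change -0.35, SE 0.10, adjusted p = 0.0226). Echs1 lost its call without any 1 of 6 libraries (WT replicates 1, 2 and 5, Fbp1-deleted replicates 6, 7 and 9), with adjusted p up to 0.0839. Hibadh lost its call without any 1 of 4 of these (WT replicate 2, Fbp1-deleted replicates 6, 7 and 9), with adjusted p up to 0.0659, and without the filter on low counts (0.0504).

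Besides Dld, described above, the remaining calls lay at the cobalamin end. Mmab, which makes adenosylcobalamin for methylmalonyl-CoA mutase, fell from 24.1 ± 5.57 to 10.4 ± 3.49 CPM (change -1.20, SE 0.22, adjusted p = 0.00265, edgeR). Fbp1-deleted replicate 8, at 16.6 CPM, overlapped WT replicate 4, at 16.2 CPM. Mmadhc, which routes cobalamin to its enzymes, rose. Its mean was 53.0 ± 4.38 CPM in WT and 86.2 ± 17.4 CPM in Fbp1-deleted liver (change 0.70, SE 0.14, adjusted p = 0.00352). Replicate 8 was again the liver nearest WT, at 56.4 CPM against 88.5 to 102 in the other 4. The mutase itself, listed as Mut, stood at 132 ± 12.0 CPM in WT and 134.5 ± 15.9 CPM in Fbp1-deleted liver. Aldh6a1, the methylmalonate semialdehyde dehydrogenase, had a change of -0.01 (SE 0.11).

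**Figure D5:**
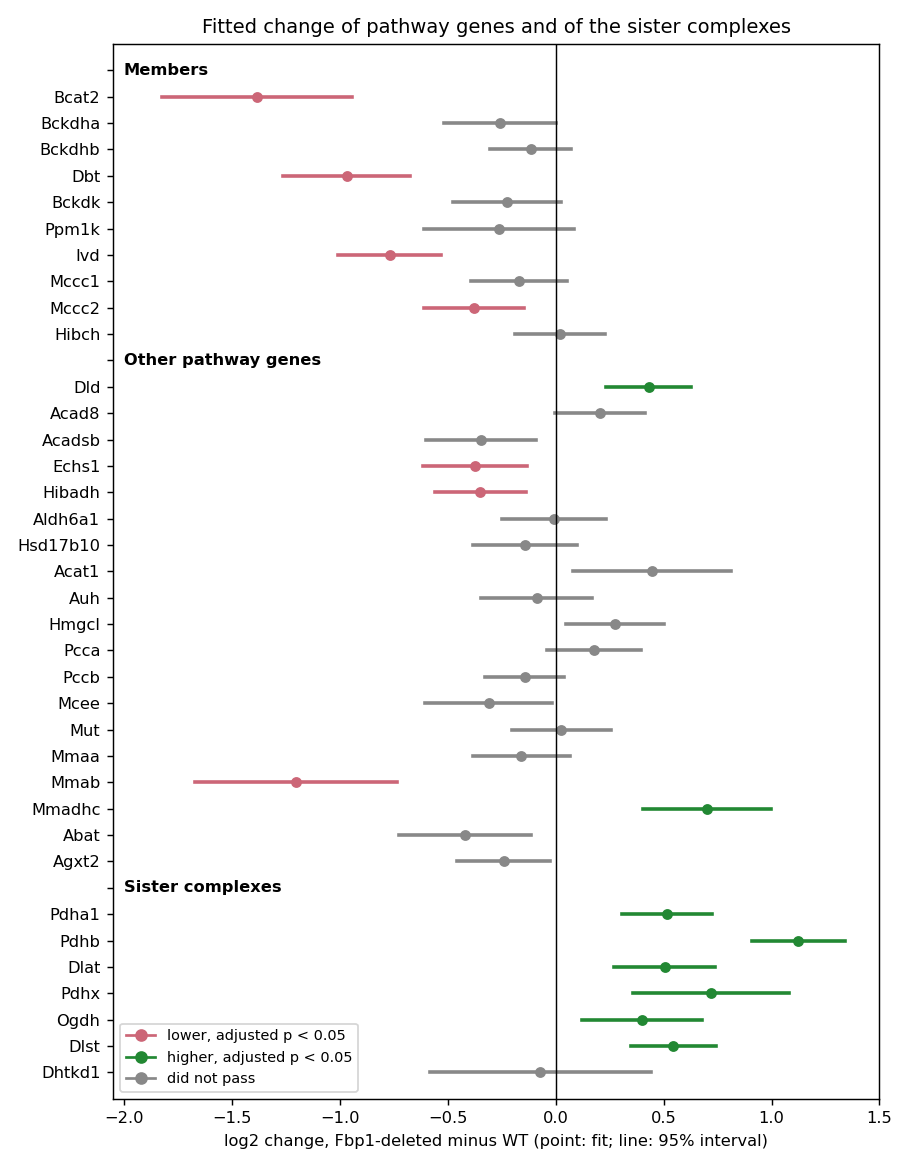
Fitted log2 change (Fbp1-deleted minus WT, horizontal axis) with its 95% interval for the 10 genes, 19 further genes of the pathway and 7 subunits of the sister dehydrogenase complexes. Colour gives the direction of genes at adjusted p under 0.05. Dbt lies at -0.97, while Dld and 6 of 7 sister subunits lie above 0 and passed.

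The pyruvate and oxoglutarate dehydrogenases are built on the same plan as the branched-chain complex and share its E3. Of 14 relatives listed, 13 were tested, 7 rose and 0 fell (median change 0.40). That is 53.8% of those tested, beside 20.6% of all genes tested. Pdhb, the beta subunit of pyruvate dehydrogenase E1, averaged 122.5 ± 8.38 CPM in WT and 267 ± 27.9 CPM in Fbp1-deleted liver and rose by 1.12 (SE 0.10), with adjusted p = 1.23e-05. Dlst, the E2 of oxoglutarate dehydrogenase, rose by 0.55 (SE 0.09, adjusted p = 0.00134). The other 5 that rose, named after their values were seen, were Pdha1, Dlat, Pdhx, Ogdh and the kinase Pdk4. Dlat, the pyruvate counterpart of Dbt, changed by 0.51 (SE 0.11), where Dbt changed by -0.97. The difference between those changes was not tested. Ogdh and Pdk4 lost their calls in 7 and 8 of the 10 fits that left out 1 library, with adjusted p up to 0.104 and 0.0786. None of the other kinases and phosphatases of that list that were tested (Pdk1, Pdk2, Pdp1, Pdp2 and Pdpr) passed, nor did Dhtkd1.

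Carriers went both ways. Slc25a44, which brings branched-chain amino acids into mitochondria, stood at 67.4, 86.4, 84.9, 74.2 and 81.1 CPM in WT and at 127, 125, 133, 126 and 127 CPM in Fbp1-deleted replicates 6 to 10. The groups lay far apart and the Fbp1-deleted livers were nearly equal. The change was 0.70 (SE 0.09, adjusted p = 0.000254, edgeR), opposite in sign to those of Bcat2 and Dbt. Slc43a1, a plasma membrane carrier of large neutral amino acids, fell from 18.3 ± 3.23 to 8.76 ± 1.90 CPM without overlap (change -1.06, SE 0.17). Slc16a1, a monocarboxylate carrier, rose by 1.11 (SE 0.12). Over the carrier list 2 of 7 rose and 1 fell, or 42.9%, beside 20.6% of all genes tested. Of 6 genes that supply lipoate or biotin, the cofactors of Dbt and Mccc1, 0 passed, with changes between -0.69 and 0.11. All 6 were tested with edgeR, as above. Lipt1, a lipoyltransferase, had a change of -0.44 (adjusted p = 0.0603), and it passed as lower with upper quartile factors (0.0442), library totals (0.0351) and DESeq2 (0.0436).

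Among 4 regulators reported for the pathway, Ppargc1a rose by 2.67 (SE 0.30, adjusted p = 0.000266, edgeR) and the other 3 did not pass. Klf15, a factor known to activate branched-chain amino acid breakdown in liver and muscle, stood at 179 ± 27.1 CPM in WT and 198 ± 16.7 CPM in Fbp1-deleted liver. Its change was 0.15 (SE 0.11, adjusted p = 0.387), with an interval from -0.10 to 0.39.

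Once each group's mean was subtracted, the log2 levels of the 10 genes varied together only weakly over the 10 livers. The median r of the 45 pairs was 0.20, from -0.75 for Dbt with Bckdk to 0.73 for Ivd with Hibch, and 30 pairs were above 0. The carboxylase subunits Mccc1 and Mccc2 had r = 0.72, and Bckdha with Dbt had r = -0.59. These are descriptions of 10 libraries that share scaling. The genes most like Dbt by that measure, among 11076 compared, were Wfdc17 (r = 0.98), Tmem18 (0.96), Klhl28 (0.95), Rgn (0.94) and Prps2 (0.93). They were picked as the highest of these many r values, and how high r runs by such picking alone was not tested. Without the subtraction Klhl28 had r = -0.47 with Dbt, and the others lay between 0.84 and 0.94. Rgn fell (change -0.51, adjusted p = 0.0248, edgeR), as did Prps2 (change -0.71, adjusted p = 0.0227), and the other 3 did not pass.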

How the data were processed

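Per the labels' protocols, total RNA of snap-frozen liver was extracted with a column kit and made into mRNA libraries that do not keep strand, and the sources give paired-end reads. The authors deposited 1 table of estimated counts per gene. Salmon, CASAVA and GRCm38 appear in the submitters' processing notes with no version. The series' design text also describes a route by STAR and featureCounts, and how transcripts were summed to genes or adjusted for length is not stated in the sources. The counts were whole numbers, so none were rounded. Gene identifiers were matched to GENCODE M21 (52175 by identifier and version, 1180 by identifier, 37 not matched).

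The test was edgeR 4.0.16 under R 4.3.3 (filterByExpr, TMM, robust quasi-likelihood F test, ~ group, adjusted p over 15392 genes). The SE was derived from the F statistic and the log2 change, and 95% intervals use the fit's degrees of freedom. Levels per length divide CPM by the exon length of the gene. Replicate numbers 1 to 5 and 6 to 10 pair no samples. No library was a duplicate (chi-square per degree of freedom at least 16.2 within a group). The fit was tested on simulated data with 200 genes changed. It called 60 of 97 genes with a true log2 change of 1 (61.9%) and 87 of 93 with 2 (93.5%), and 2.65% of its calls were false. In the data 3178 genes passed, far more than were changed in the simulation. The adjustment of p depends on that number, so these rates need not hold for the data. Smaller changes were not simulated, so a gene that did not pass may still have changed. Motifs were searched on both strands in the 250 bases before each RefSeq start.

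Alternatives were RLE factors, upper quartile factors, library totals, no filter, a stricter filter (1 CPM in 5 libraries), DESeq2 1.42.0, limma-voom (limma 3.58.1), edgeR without robust shrinkage, and each library left out. Principal transcript lengths were added after the data were seen. The members and lists were chosen with earlier results of these data known. Named were the 10 genes, Fbp1, the further pathway genes that passed with Bcat1 and Dld, of the relatives and supply genes the 6 with the smallest adjusted p with Klf15 and Slc25a44, and the 5 genes most like Dbt. Other names were chosen after their values were seen.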

Additional observations from a re-analysis of the deposited data

Results flagged for a closer look

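Among 48 pairs of a gene and a group, 5 held a liver whose gap to the others exceeded the 95% critical value of Dixon's test for 5 samples (0.71 of the range). Chance flags about 1 in 20 groups. Bckdha stood at 286 CPM in WT replicate 5 against 238 to 241 in the other 4 WT livers. The other 4 flags were all Fbp1-deleted replicate 8, the liver nearest WT on the leading principal component. Mccc2 stood there at 60.9 CPM against 44.9 to 49.4 in the other 4 Fbp1-deleted livers, and Mmab at 16.6 against 7.89 to 9.42. Mmadhc stood at 56.4 CPM against 88.5 to 102, and Dlst at 196.5 against 230.2 to 242. In each of these 4 genes replicate 8 was displaced towards the WT livers. Without replicate 8 the changes of the breakdown genes were -1.52 for Bcat2, -0.77 for Ivd and -0.45 for Mccc2, all passing (edgeR), as did Dbt.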

How the results depend on the processing

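Of 180 values of the 10 genes under alternatives, 171 kept their direction and their side of the threshold, 5 lost the call (Mccc2 with 1 library left out) and 4 turned direction (Hibch). The breakdown genes that fell numbered 4 under each alternative that kept all libraries and 3 to 4 with 1 left out. Hibch was at -0.0528 with upper quartile factors, -0.0657 with library totals and between -0.0281 and 0.0600 with 1 library left out. Mut was at -0.0420, -0.0572 and between -0.0275 and 0.0942 under the same settings. Aldh6a1 lay between -0.0750 and 0.0544 with 1 library left out. Of the further pathway genes 3 fell. They were 5 with upper quartile factors, the stricter filter or DESeq2, 6 with library totals, and 1 to 4 with 1 library left out, where those that rose numbered 2 to 4. Abat and Acadsb, just over the threshold (0.0502 and 0.0545, edgeR), each passed as lower in 5 of the 8 alternatives that kept all libraries. Over all genes, 1019 to 1858 fell and 1066 to 2060 rose with 1 library left out, the fewest falls without Fbp1-deleted replicate 6, the fewest rises without replicate 9 and the most of both without replicate 8. The cause of these shifts was not tested. Among carriers, cofactor genes and regulators that did not pass, some passed as lower under alternatives. Lipt1 and Lipt2 passed without Fbp1-deleted replicate 8 (adjusted p = 0.0477 and 0.0423), and Lipt1 without WT replicate 3 (0.0458). Slc7a5 and Ppara passed with upper quartile factors (0.0391 and 0.0458) and library totals (0.0362 and 0.0401). In the other direction, the carrier gene Slc3a2 passed as higher without Fbp1-deleted replicate 8 (adjusted p = 0.0374, edgeR). No paired analysis was possible because the groups share no replicate numbers.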

Other observations

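Mmab starts next to Mvk, the mevalonate kinase gene of cholesterol synthesis, and both were lower. Mmab ends at 114444060 on the minus strand of chromosome 5 and Mvk begins at 114444269 on the plus strand, 208 bases apart in GRCm38. Mvk, chosen after its values were seen, fell from 19.7 ± 6.30 to 7.85 ± 4.31 CPM (SD, n = 5), a change of -1.32 (SE 0.34, adjusted p = 0.0200, edgeR), beside -1.20 for Mmab. Mvk lost its call without Fbp1-deleted replicate 6 or 9 (adjusted p = 0.0561 and 0.0565). It also did so when unfiltered genes were tested (0.0754). Mmab passed with each of the 10 libraries left out.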
